A study of Mus musculus with 36 samples.

Results

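The WNT gene set described here held 41 mouse genes, given as a list of gene names. They were 19 WNT ligands, 10 Frizzled receptors, the 2 co-receptors Lrp5 and Lrp6, the secreted agonist Rspo3, 4 secreted antagonists (Dkk1, Sfrp1, Sfrp2 and Notum) and 5 feedback, target or nuclear genes (Axin2, Sp5, Nkd1, Lef1 and Tcf7). All 41 were among the 51734 gene symbols of the count table and had at least 1 count. The filter on low counts passed 40 of them and left out Wnt8b, and Wnt1 passed it through its NPC counts alone.

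The study sequenced mRNA from E14 mouse embryonic stem cells (ESC), an established line of pluripotent cells, and from neural precursor cells (NPC) made from them with retinoic acid. The 18 libraries form 6 groups of 3, with 3 genotypes at each stage: wild type (WT), MLL3/4 dCD, in which both methyltransferases lack catalytic activity (dCD below), and MLL2 dTAG, in which MLL2 carries a tag that the compound dTAG-13 directs to degradation (MLL2dTAG below). MLL2, MLL3 and MLL4 methylate lysine 4 of histone H3, MLL3 and MLL4 mainly at enhancers and MLL2 mainly at promoters. Per the labels dTAG-13 was a treatment of all 18 libraries, WT and ESC included, and retinoic acid was added to it for NPC, so no comparison isolates the compound. The protocol gives 2 µM of it from day 1, with collection of NPC on day 4, and states no exposure time for ESC. The labels do not say whether replicates were separate cultures or how many clones each edited line represents, so p-values measure the spread between these libraries, and genotype and line cannot be told apart.

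WNT proteins are lipid-modified secreted signals that bind a Frizzled receptor together with LRP5 or LRP6. The signal stops the AXIN complex from degrading beta-catenin, which then enters the nucleus and joins TCF/LEF factors at target genes such as Axin2 and Sp5, while other WNT proteins, among them WNT5A and WNT11, act mainly on cell polarity and movement. In mouse ESC the pathway supports self-renewal, and in the embryo WNT1 and WNT3A made at the dorsal midline pattern the neural tube. Secreted proteins tune the signal: SFRP proteins bind WNT, DKK1 blocks the LRP co-receptors, NOTUM removes the lipid from WNT, and R-spondins raise the amount of receptor at the cell surface.

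Library totals were 19.4 to 46 M counted reads, at which 3 counts in 1 library equal 0.0652 to 0.154 CPM (counts scaled to a common library total, after TMM). The 6 ESC marker transcripts, Pou5f1 and Nanog among them, summed to 2193 to 2768 CPM in the 9 ESC libraries. In NPC the same sum was 36.8 to 37.2 CPM in WT, 60.4 to 67.3 in dCD and 146 to 148 in MLL2dTAG. The higher sum in dCD lay mainly in Sox2 and Klf4. Sox2 averaged 14.4, 28.3 and 17.3 CPM in NPC WT, dCD and MLL2dTAG, and Klf4 14.03, 26.6 and 56.3. Pou5f1 averaged 1.01, 1.27 and 26.9 CPM in these groups, and Nanog 1.71, 1.34 and 14.4. Esrrb averaged 1.18, 1.10 and 17.2 CPM, and Zfp42 4.62, 5.10 and 14.8. Of the neural progenitor markers, NPC WT held 91.2 ± 1.08 CPM of Nes and 38.9 ± 1.16 of Pax6 (mean ± SD, n = 3), but 3.10 of Sox1 and 0.451 of Hes5, so that these defining markers of early neural progenitors were low or near 0. The 6 neural progenitor markers summed to 136.9 to 139.5 CPM in NPC WT, 279 to 312 in dCD and 190.3 to 193 in MLL2dTAG. Nes averaged 231 CPM in dCD and 156 in MLL2dTAG, and Pax6 52.8 and 26.4. The 4 neuron markers summed to 143 to 151, 186 to 200.5 and 136 to 141 CPM in the 3 NPC groups. In the same order Tubb3 averaged 42.5, 82.4 and 47.0 CPM and Elavl3 18.2, 31.6 and 22.7. Dcx averaged 81.4, 77.3 and 66.8 CPM and Neurog2 4.31, 3.18 and 1.87. Summed endoderm markers were 203 to 211, 175 to 183 and 498 to 510 CPM in NPC WT, dCD and MLL2dTAG. Summed mesenchyme markers were 692 to 712, 887 to 972 and 1033 to 1047 CPM, but these markers did not move alike. In the same order Col3a1 averaged 295, 426 and 716 CPM, Pdgfra 62.8, 64.6 and 160, and Twist1 26.1, 36.0 and 39.2. In MLL2dTAG the others were below WT: Col1a1 averaged 156, 195 and 99.8 CPM, Col1a2 153, 178 and 21.3, and Prrx1 10.3, 18.3 and 3.50. The part of these markers in the NPC results below was not tested. One library stood apart: WT library 2 of ESC differed from the other ESC WT libraries with a chi-square per degree of freedom of 10.5 and 8.38, against at most 4.43 for replicate pairs without it. Without it the members called (edgeR adjusted p under 0.05) were 24 in place of 27 in dCD ESC, 25 in place of 27 in MLL2dTAG ESC, 37 in place of 38 between the stages of WT, and for the stage differences 24 in place of 22 in dCD and 25 in place of 26 in MLL2dTAG. The member calls lost were Wnt4, Wnt5b, Wnt9b and Rspo3 in dCD ESC, Fzd4 (0.17, edgeR adjusted p = 0.051) and Rspo3 in MLL2dTAG ESC, Wnt2 between the stages and Sfrp1 in the stage difference of MLL2dTAG (-0.09, edgeR adjusted p = 0.11). Those gained were Wnt6 in dCD ESC (1.15, edgeR adjusted p = 0.020) and Lrp6 and Fzd3 in the stage difference of dCD, the change of dCD against WT in NPC minus that in ESC. Fewer cells of a type and less RNA per cell cannot be told apart in these bulk libraries.

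The 4 promoter windows below are shown first because the results below turn on these genes: Sp5 and Axin2, 2 textbook targets of beta-catenin whose transcripts moved with stage and line, and Wnt1 and Wnt10b, ligand genes that lie next to each other and were both higher in dCD NPC. Each is the RefSeq window (build GRCm38.p6) of the 250 bases before the transcript start, on the gene's own strand: chr2:70474673-70474922 (plus) for Sp5, chr11:108920099-108920348 (plus) for Axin2, chr15:98789607-98789856 (plus) for Wnt1 and chr15:98778151-98778400 (minus) for Wnt10b. Capitals mark CTTTGA, the core bound by TCF/LEF factors, which was searched on both strands.
Sp5: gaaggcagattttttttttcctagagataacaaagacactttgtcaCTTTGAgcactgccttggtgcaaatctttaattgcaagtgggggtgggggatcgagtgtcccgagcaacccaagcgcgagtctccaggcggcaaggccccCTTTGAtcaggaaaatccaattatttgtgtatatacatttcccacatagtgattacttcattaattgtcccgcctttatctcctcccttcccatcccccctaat
Axin2: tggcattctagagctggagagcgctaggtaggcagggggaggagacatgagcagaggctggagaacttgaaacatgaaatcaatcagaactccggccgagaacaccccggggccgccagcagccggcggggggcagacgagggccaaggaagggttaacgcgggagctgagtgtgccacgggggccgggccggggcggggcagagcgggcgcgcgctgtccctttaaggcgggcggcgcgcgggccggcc
Wnt1: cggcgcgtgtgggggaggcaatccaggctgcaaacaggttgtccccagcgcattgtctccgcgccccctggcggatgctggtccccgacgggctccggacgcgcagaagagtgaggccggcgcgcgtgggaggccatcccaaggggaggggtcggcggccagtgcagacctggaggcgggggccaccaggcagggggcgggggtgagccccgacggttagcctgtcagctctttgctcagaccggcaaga
Wnt10b: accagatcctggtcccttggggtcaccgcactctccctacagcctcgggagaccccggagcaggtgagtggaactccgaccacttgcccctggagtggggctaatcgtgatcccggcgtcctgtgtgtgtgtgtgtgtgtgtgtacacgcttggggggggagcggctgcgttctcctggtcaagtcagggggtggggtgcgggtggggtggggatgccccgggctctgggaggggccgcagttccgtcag
The Sp5 window held the motif at 2 places, at positions -204 and -104 from the start, and the other 3 windows held none. The motif was in 13.8% of all 32851 windows of this length and was present 2 or more times in 1.37% of them. RefSeq windows were found for 28 members, 35 windows in all, and 6 of the 35 held it (17.1%), in Sp5, Lef1, Fzd1, Wnt5b, Wnt11 and Dkk1. The Sp5 window had 6 CG pairs, the median of all windows, against 24 for Axin2, 23 for Wnt1 and 14 for Wnt10b. A match is a run of letters, not a shown binding site, and the absence of one covers this window only.

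**Figure D1:**
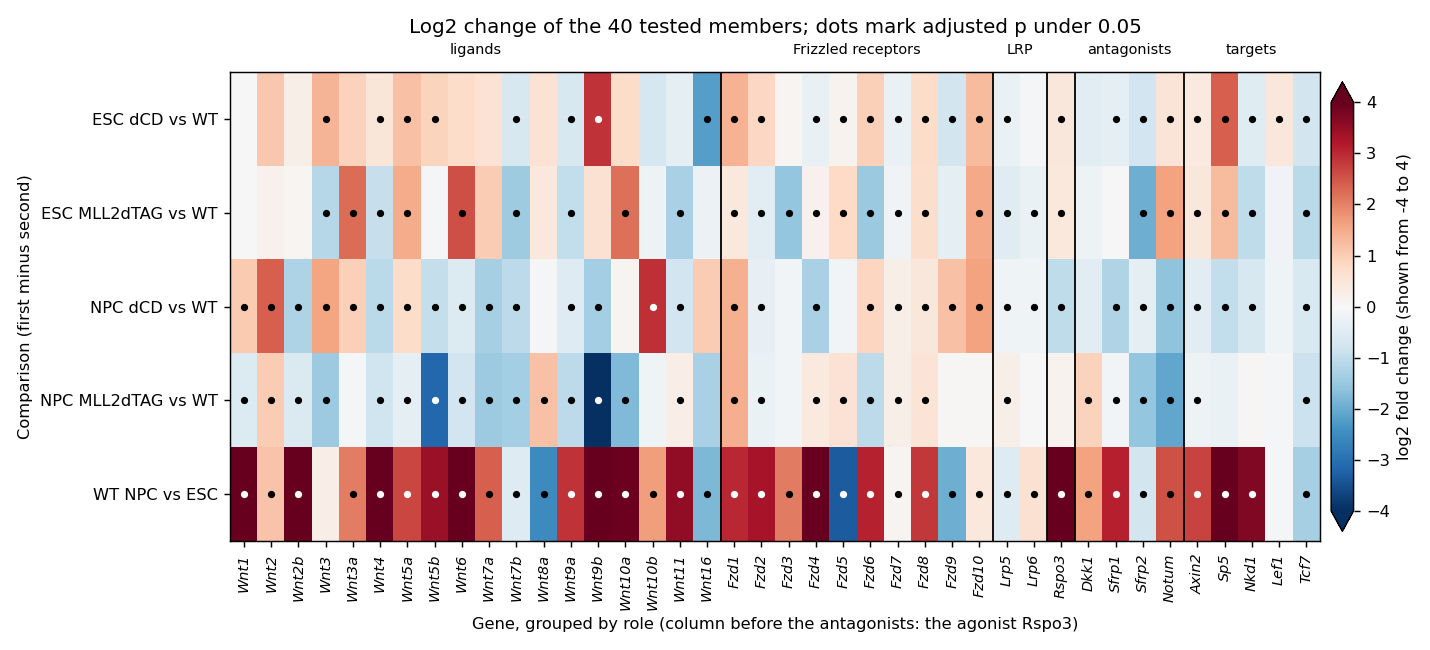
Log2 fold change of the 40 tested members (columns, grouped by role) in the 4 comparisons of an edited line with WT and in WT NPC against WT ESC (rows); red is higher in the first-named group, blue lower, colours end at 4 and -4, and dots mark calls by edgeR. The bottom row is mostly dark red (30 members called higher in NPC), and the columns of Wnt3 and Fzd6 change colour between the dCD rows and the MLL2dTAG rows.

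Differentiation of WT cells moved nearly the whole set, and mostly upward. Between ESC and NPC 38 of the 40 tested members (95%) were called at an adjusted p under 0.05, where 79.5% of all 20511 genes tested were called. Of these members 30 were higher and 8 lower in NPC, against 39.1% and 40.4% of all genes. A change of at least 2-fold was called upward for 27 and downward for 5, where 43.7% of all genes had one in either direction. The median log2 fold change of the members was 2.61, against -0.04 over all genes tested.

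Each comparison of an edited line with WT also called a larger share of the members than of all genes. In dCD ESC 27 members (67.5%) were called, 16 higher and 11 lower, where 48.3% of all genes were called, 25.7% higher and 22.6% lower. At least 2-fold changes there were 6 upward and 1 downward (9.51% of all genes in either direction). In MLL2dTAG ESC 27 (67.5%) were called, 13 higher and 14 lower, against 56.9% of all genes, 28.7% higher and 28.2% lower. At least 2-fold changes were 7 upward and 8 downward (16.8% of all genes). The 2 lines thus had equal counts of called members in ESC, with more 2-fold decreases in MLL2dTAG. In dCD NPC 33 (82.5%) were called, 12 higher and 21 lower, against 53.5% of all genes, 26.7% higher and 26.8% lower. At least 2-fold changes were 7 upward and 9 downward (11.9% of all genes). In MLL2dTAG NPC 29 (72.5%) were called, 10 higher and 19 lower, against 61.7% of all genes, 33.3% higher and 28.4% lower, with 3 upward and 10 downward by at least 2-fold (19.6% of all genes). The 2 lines share the WT libraries of their stage, so their changes against WT are given side by side and were compared only by the direct test of MLL2dTAG against dCD.

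The ligands gave the largest increases of the set with differentiation: 14 of the 18 tested were at least 2-fold higher in NPC and 3 were called lower (43.7% of all genes moved at least 2-fold in either direction). Among those higher, Wnt1, Wnt9b, Wnt10a and Wnt10b would not have passed the filter on their ESC counts. Wnt4, a ligand known from kidney and ovary development, measured 0.958, 1.03 and 1.43 CPM in the 3 ESC WT libraries and 251, 250.3 and 242 in NPC WT (log2 fold change 7.73, SE 0.07, edgeR adjusted p = 1.0e-41). Wnt2b, a ligand of dorsal neural and lung development, measured 1.17, 1.19 and 0.986 CPM in ESC WT and 113, 116 and 116 in NPC WT (6.69, SE 0.10, edgeR adjusted p = 2.6e-35). Both stayed at or under 2 CPM in every ESC WT library and above 100 CPM in every NPC WT library. Wnt1 had no count in any of the 9 ESC libraries, which at 3 counts per library allows up to 0.154 CPM, and measured 5.89, 9.21 and 7.29 CPM in NPC WT. With the floor of 3 counts over the group, its level in NPC WT was at least 209-fold higher than in ESC WT (793 counts against 0).

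Smaller increases of the same kind were seen for the other ligands of substantial level. Wnt9a rose from 7.08, 7.17 and 7.99 CPM in ESC WT to 55.5, 56.3 and 53.5 in NPC WT (2.89, SE 0.08, edgeR adjusted p = 7.1e-28). Wnt6 rose from 0.373, 0.630 and 0.306 to 14.2, 15.3 and 14.4 CPM (5.02, SE 0.19, edgeR adjusted p = 2.3e-23). For Wnt11, a ligand of cell movement at gastrulation, the values were 1.60, 2.69 and 2.52 CPM and 24.6, 29.1 and 28.1 CPM (3.53, SE 0.12, edgeR adjusted p = 2.1e-24). In each of these genes the highest ESC WT library stayed under the lowest NPC WT library. Wnt5b (3.46), Wnt5a (2.67) and Wnt10b (1.66) were also called higher on the log2 scale. The ligands called lower in NPC were Wnt7b (-0.51), Wnt8a (-2.53) and Wnt16 (-1.78), and Wnt3, which is needed for the primitive streak, was not called (2.13, 2.06 and 2.45 CPM against 2.53, 2.56 and 2.99; 0.28, SE 0.18, edgeR adjusted p = 0.16).

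In ESC the edited lines raised Wnt5a and lowered Wnt7b and Wnt9a. Wnt5a, the prototype ligand of the polarity branch, measured 4.53, 5.84 and 5.17 CPM in WT, 12, 11.8 and 11.9 in dCD and 13.6, 12.8 and 17.7 in MLL2dTAG. All 6 libraries of the edited lines lay above the 3 WT libraries, with log2 fold changes of 1.18 in dCD (SE 0.12, edgeR adjusted p = 1.4e-10) and 1.50 in MLL2dTAG (SE 0.11, edgeR adjusted p = 3.1e-14). The 6 mesenchyme markers summed to 464 to 579 CPM in ESC WT, 739 to 827 in dCD and 840 to 896 in MLL2dTAG, none of them at 0; their part in the Wnt5a rise was not tested. Wnt7b, known from lung and brain vessel development, measured 4.84, 6.63 and 5.68 CPM in WT, 3.67, 3.73 and 3.73 in dCD and 2.27, 2.17 and 2.04 in MLL2dTAG (log2 fold changes -0.64 and -1.42). For Wnt9a the values were 5.21, 4.06 and 5.11 CPM in dCD and 3.59, 3.6 and 4.10 in MLL2dTAG (-0.63 and -0.97). For both genes all WT libraries were above all libraries of either line. Wnt6 measured 0.982, 0.580 and 0.671 CPM in dCD ESC, a difference from WT that was not called (0.72, SE 0.34, edgeR adjusted p = 0.075), and 2.53, 2.83 and 2.74 CPM in MLL2dTAG ESC, above all WT libraries (2.59, SE 0.24, edgeR adjusted p = 2.7e-11). Wnt4 and Wnt11 fell in MLL2dTAG ESC (-0.92 and -1.29), from levels that were already under 3 CPM in WT.

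Among NPC the 2 most abundant ligands were lower in both lines. Wnt4 measured 118, 118 and 119 CPM in dCD (-1.07, SE 0.04, edgeR adjusted p = 3.2e-23) and 142, 143 and 140.2 in MLL2dTAG (-0.81, SE 0.04, edgeR adjusted p = 3.3e-20), against 242 to 251 in WT. For Wnt2b the values were 47.7, 49.1 and 49.5 CPM in dCD (-1.24, SE 0.06, edgeR adjusted p = 6.6e-20) and 75.0, 77.0 and 78.4 in MLL2dTAG (-0.58, SE 0.05, edgeR adjusted p = 1.1e-11), against 113 to 116 in WT. The 3 groups did not overlap for either gene, and dCD was the lowest; the direct tests of MLL2dTAG against dCD gave 0.26 for Wnt4 and 0.65 for Wnt2b, both called. Wnt9a was lowest in MLL2dTAG instead: 40.7, 36.3 and 39.5 CPM in dCD (-0.51, SE 0.06, edgeR adjusted p = 6.1e-09) and 25.2, 28.4 and 26.9 in MLL2dTAG (-1.03, SE 0.06, edgeR adjusted p = 9.6e-17). Wnt7b was also below WT in both lines, with 4.34, 3.75 and 4.11 CPM in WT, 1.50, 1.99 and 2.38 in dCD (-1.05) and 1.48, 1.57 and 1.72 in MLL2dTAG (-1.35). Of the 18 tested ligands 9 were called lower and 6 higher in dCD NPC, where 26.8% of all genes were lower and 26.7% higher. In MLL2dTAG NPC 12 were lower and 3 higher, where 28.4% of all genes were lower and 33.3% higher.

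**Figure D2:**
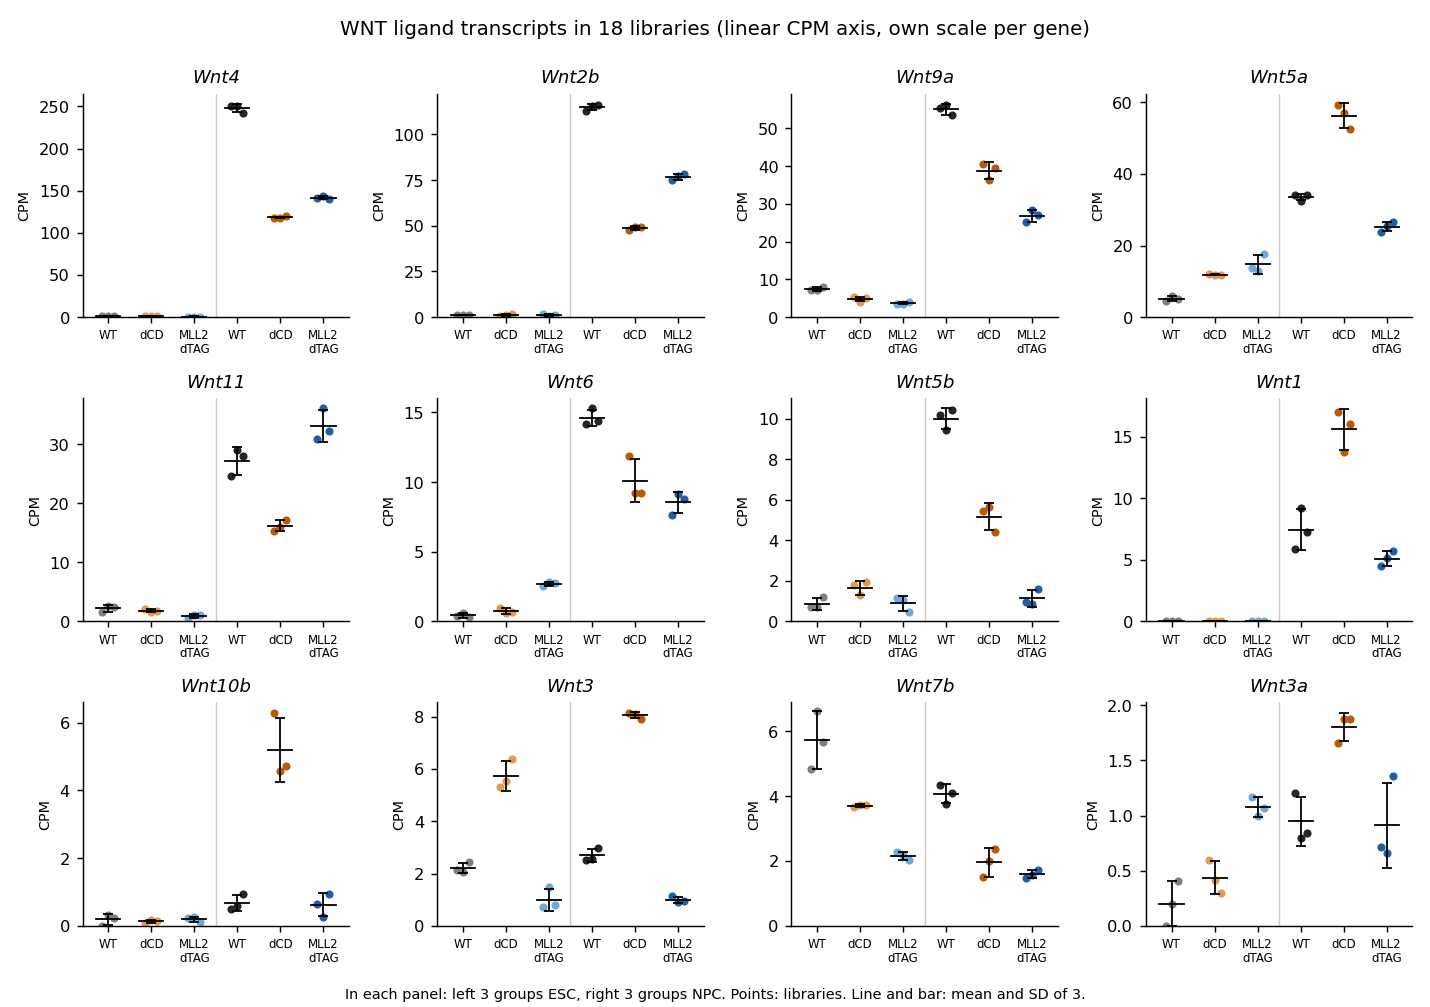
CPM of 12 WNT ligands in all 18 libraries, each panel with its own linear axis; points are libraries, lines and bars the mean and SD of 3, the left 3 groups ESC and the right 3 NPC. Wnt4 and Wnt2b lie near 0 in ESC and are highest in NPC WT, while Wnt1, Wnt10b and Wnt3 are highest in NPC dCD (15.6, 5.20 and 8.05 CPM on average).

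A smaller group of ligands was higher in dCD NPC. Wnt1, the dorsal midline ligand, measured 5.89, 9.21 and 7.29 CPM in WT, 17.0, 13.7 and 16.0 in dCD and 4.48, 5.12 and 5.71 in MLL2dTAG. It was above WT in dCD (1.05, SE 0.13, edgeR adjusted p = 8.6e-08) and below it in MLL2dTAG (-0.55, SE 0.15, edgeR adjusted p = 0.0016), and the 3 groups did not overlap. Wnt10b measured 0.506, 0.586 and 0.950, 6.29, 4.58 and 4.72 and 0.653, 0.265 and 0.939 CPM in the same groups, so that all dCD libraries were above 4 CPM and all others under 1 (2.92, SE 0.31, edgeR adjusted p = 4.4e-10 in dCD; -0.18, SE 0.38, edgeR adjusted p = 0.71 in MLL2dTAG). Wnt5a rose in dCD NPC to 59.3, 57.0 and 52.4 CPM (0.74, SE 0.07, edgeR adjusted p = 3.5e-11) and fell in MLL2dTAG NPC to 23.8, 25.6 and 26.5 CPM (-0.41, SE 0.07, edgeR adjusted p = 1.2e-05), from 34.1, 32.5 and 34.2 in WT. Beside these values, the summed roof plate and dorsal neural tube markers (Lmx1a, Msx1, Pax3 and Pax7) were 54.3 to 56.4 CPM in NPC WT, 56.7 to 60.0 in dCD and 25.1 to 26.7 in MLL2dTAG, and none of the 4 was at 0. Within that list only Pax3 was on average above WT in dCD, at 6.05, 19.7 and 7.53 CPM in WT, dCD and MLL2dTAG. In the same order Lmx1a averaged 9.74, 4.25 and 1.32 CPM, Msx1 37.0, 33.4 and 16.9, and Pax7 2.39, 0.897 and 0.168. The part of these markers in the ligand results was not tested.

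The largest decrease of a ligand in MLL2dTAG NPC among those above 5 CPM was in Wnt5b, a relative of Wnt5a. It measured 10.2, 9.43 and 10.4 CPM in NPC WT, 5.46, 5.63 and 4.43 in dCD and 0.949, 0.839 and 1.62 in MLL2dTAG. The fall in MLL2dTAG (-3.14, SE 0.20, edgeR adjusted p = 8.4e-16) reached levels that overlap those of MLL2dTAG ESC (1.17, 1.06 and 0.470 CPM), and the fall in dCD was smaller (-0.95, SE 0.17, edgeR adjusted p = 1.0e-05), and the direct difference between the lines was -2.19, SE 0.21, edgeR adjusted p = 4.9e-11. Wnt5b overlaps Fbxl14 on the other strand, and Fbxl14 held 41.9 to 56.7 CPM in all libraries; whether the counting used strand is not stated. The other annotated genes that overlap a member, Notumos apart, stayed under 2 CPM in every library. Wnt6 fell in both lines, to 11.9, 9.19 and 9.24 CPM in dCD (-0.54, SE 0.11, edgeR adjusted p = 6.0e-05) and 7.65, 9.14 and 8.82 in MLL2dTAG (-0.77, SE 0.11, edgeR adjusted p = 1.1e-07). Wnt11 fell in dCD NPC to 15.4, 16.0 and 17.2 CPM (-0.75, SE 0.09, edgeR adjusted p = 2.8e-09) and rose in MLL2dTAG NPC to 30.8, 36.1 and 32.2 (0.28, SE 0.08, edgeR adjusted p = 0.0032).

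Wnt3 was higher in dCD and lower in MLL2dTAG at both stages. In ESC it measured 2.13, 2.06 and 2.45 CPM in WT, 5.29, 5.55 and 6.38 in dCD and 0.733, 1.49 and 0.783 in MLL2dTAG, and in NPC 2.53, 2.56 and 2.99, 8.13, 8.11 and 7.92 and 1.13, 0.927 and 0.939. At both stages every dCD library was above, and every MLL2dTAG library below, all WT libraries. Mesoderm markers summed to 6.76 to 7.86 CPM in ESC WT, 16.7 to 20.5 in dCD and 4.94 to 5.24 in MLL2dTAG, with Msgn1 at 0 throughout. Of these T averaged 4.08, 15.5 and 1.63 CPM, and the others did not have this order. Tbx6 averaged 2.41, 1.64 and 1.59 CPM, Meox1 0.314, 0.426 and 0.721, and Foxc1 0.590, 1.21 and 1.19. In NPC the sums were 18.5 to 18.8, 19.8 to 22.9 and 18.7 to 19.5 CPM. The part of these markers in the Wnt3 values was not tested. Against WT the log2 fold changes of Wnt3 were 1.37 and 1.58 in dCD ESC and NPC, and -1.14 and -1.44 in MLL2dTAG. The direct test of MLL2dTAG against dCD gave -2.52, SE 0.19, edgeR adjusted p = 2.0e-13 in ESC and -3.02, SE 0.18, edgeR adjusted p = 6.4e-17 in NPC.

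Per kilobase of merged exon, which allows levels of different genes to be set side by side, the most abundant ligand differed between the ESC groups and was the same in the NPC groups. Wnt9a led in ESC WT with 2.23 CPM per kb, followed by Wnt7b (1.17) and Wnt8a (1.08). In dCD ESC Wnt3 led with 1.87 CPM per kb, and in MLL2dTAG ESC Wnt5a with 1.88. Wnt4 led in all 3 NPC groups, at 59.1 CPM per kb in WT, 28.2 in dCD and 33.8 in MLL2dTAG. Second in NPC WT was Wnt2b (27.3), which in dCD NPC was level with Wnt9a (11.6 and 11.7 CPM per kb).

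Of the 10 Frizzled receptors 8 were called higher in NPC WT than in ESC WT and 2 lower, where 39.1% of all genes were higher and 40.4% lower. Fzd4, which also binds the non-WNT ligand norrin, measured 16.0, 14.9 and 14.6 CPM in ESC WT and 252, 242 and 249 in NPC WT (4.04, SE 0.05, edgeR adjusted p = 3.4e-37). Fzd5 went the other way, from 95.2, 104 and 99.1 to 9.69, 9.69 and 10.4 CPM (-3.33, SE 0.05, edgeR adjusted p = 6.7e-35). Fzd2 rose from 7.51, 8.36 and 9.82 to 84.1, 84.9 and 88.0 CPM (3.30, SE 0.06, edgeR adjusted p = 4.4e-32). Fzd6, a receptor of planar polarity, rose from 5.27, 3.65 and 4.66 to 39.9, 36.9 and 36.8 CPM (3.09, SE 0.08, edgeR adjusted p = 9.9e-28), and Fzd1 from 2.24, 2.85 and 2.11 to 19.8, 19.7 and 19.7 CPM (3.02, SE 0.11, edgeR adjusted p = 2.8e-24). For each of these 5 receptors the ESC and NPC libraries did not overlap. Fzd8 (2.82), Fzd3 (2.06) and Fzd10 (0.41) were higher and Fzd9 (-1.96) lower on the log2 scale. Fzd7 was the receptor with the highest level per kilobase in ESC WT (31.4 CPM per kb) and second to Fzd4 in NPC WT (34.0 against 36.8). Its call between the stages, 0.12, SE 0.04, edgeR adjusted p = 0.0097, was lost with upper-quartile factors (0.03, adjusted p = 0.47), and turned to -0.02 with offsets for GC content and length. It was also lost without ESC WT library 1, at 0.08 (edgeR adjusted p = 0.066).

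In dCD cells the receptors Fzd1, Fzd6, Fzd8 and Fzd10 were higher at both stages. Fzd10 measured 10.8, 10.5 and 9.99 CPM in ESC WT against 25.6, 24.7 and 25.1 in dCD (1.28, SE 0.07, edgeR adjusted p = 2.1e-16), and 14.3, 13.6 and 13.6 in NPC WT against 42.2, 44.5 and 41 in dCD (1.62, SE 0.06, edgeR adjusted p = 7.9e-22). For Fzd1 the dCD libraries held 5.89, 6.79 and 6.34 CPM in ESC (1.39, SE 0.13, edgeR adjusted p = 7.1e-11) and 53.4, 51.3 and 54.2 in NPC (1.42, SE 0.07, edgeR adjusted p = 1.2e-19). Fzd6 held 8.71, 8.62 and 8.20 CPM in dCD ESC (0.94, SE 0.10, edgeR adjusted p = 2.4e-09) and 70.2, 70.2 and 67.5 in dCD NPC (0.87, SE 0.06, edgeR adjusted p = 3.1e-15). None of these dCD libraries overlapped the WT libraries of its stage. Fzd4 was lower at both stages, slightly in ESC (13.2, 10.4 and 12.9 CPM; -0.31, SE 0.07, edgeR adjusted p = 5.4e-04) and by more than 2-fold in NPC (98.2, 103 and 99.2 CPM; -1.31, SE 0.04, edgeR adjusted p = 3.1e-24). Fzd2 was higher in dCD ESC (15.2, 15.8 and 15.5 CPM; 0.84) and lower in dCD NPC (70.8, 65.8 and 70.2 CPM; -0.31).

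**Figure D3:**
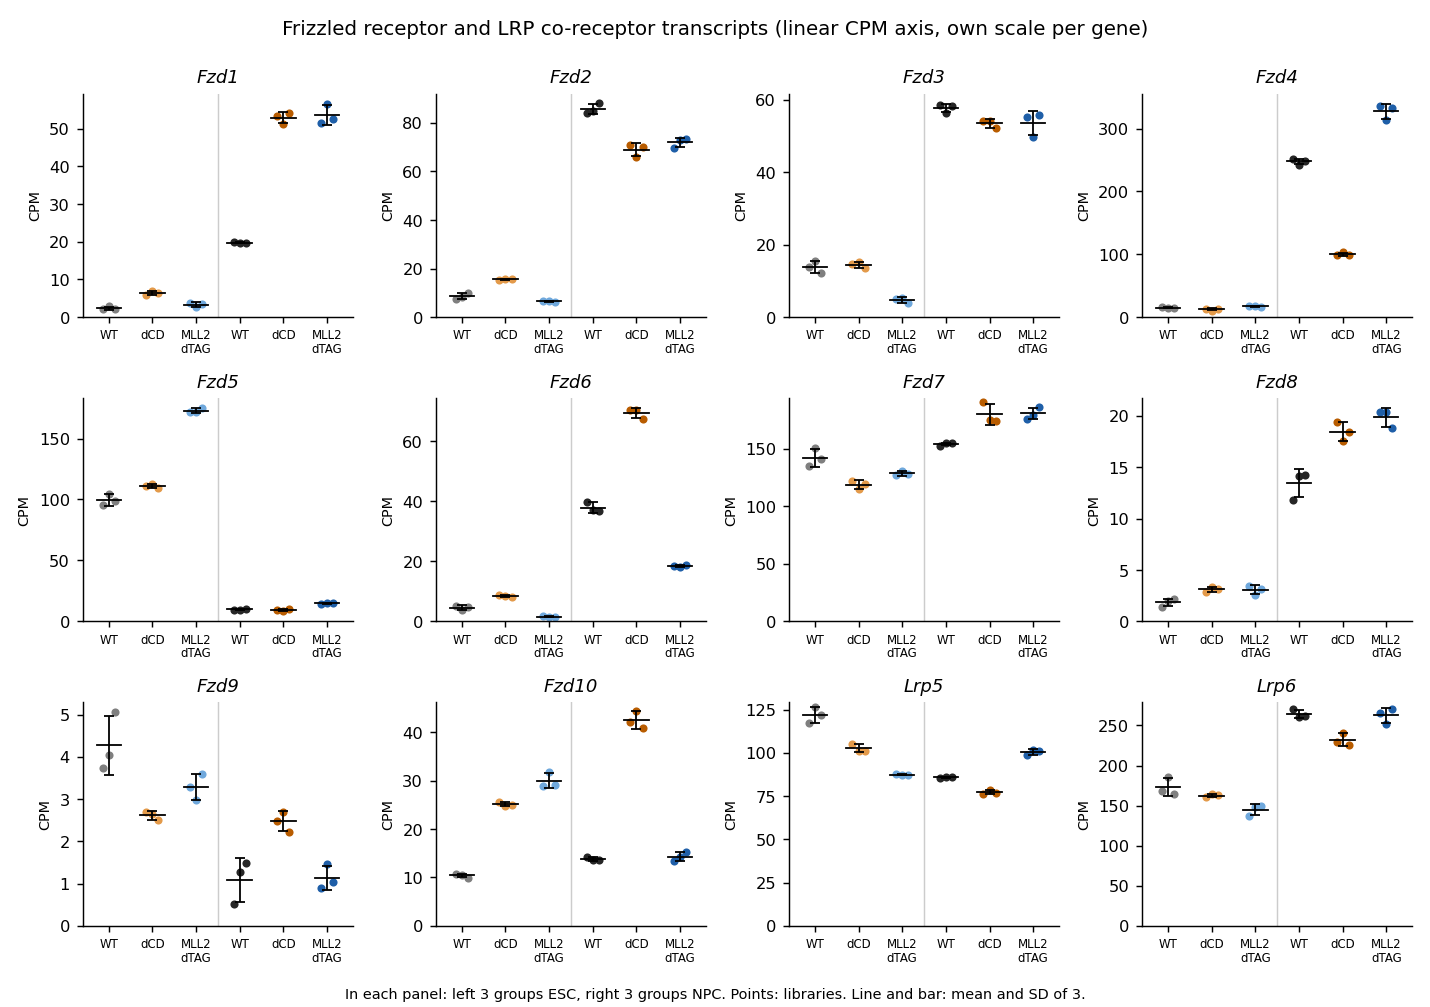
CPM of the 10 Frizzled receptors and the 2 LRP co-receptors in all 18 libraries, each panel with its own linear axis; points are libraries, lines and bars the mean and SD of 3. In NPC, Fzd4 averages 100 CPM in dCD and 328 in MLL2dTAG on either side of 248 in WT, and Fzd6 has the opposite order, 69.3 and 18.5 around 37.9.

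The MLL2dTAG line had another receptor pattern. Fzd6 was lower at both stages, with 1.76, 1.46 and 1.57 CPM in ESC (-1.48, SE 0.14, edgeR adjusted p = 2.1e-11) and 18.4, 18.3 and 18.8 in NPC (-1.03, SE 0.06, edgeR adjusted p = 1.7e-16), so that dCD and MLL2dTAG lay on opposite sides of WT. The direct difference between the lines was -2.42, SE 0.12, edgeR adjusted p = 2.7e-18 in ESC and -1.90, SE 0.06, edgeR adjusted p = 2.0e-24 in NPC. Fzd4 had the reverse order: MLL2dTAG NPC held 336, 314 and 332 CPM (0.40, SE 0.04, edgeR adjusted p = 5.2e-11), and the direct difference in NPC was 1.71, SE 0.04, edgeR adjusted p = 6.9e-28. In ESC the higher Fzd4 of MLL2dTAG (17.1, 17.6 and 16.4 CPM) was small (0.17, SE 0.06, edgeR adjusted p = 0.021). It did not survive leaving out WT library 2 or 3 or MLL2dTAG library 2 (log2 fold change 0.15 to 0.17, edgeR adjusted p = 0.051 to 0.085), nor upper-quartile factors, a fit of these groups alone, or halved counts (0.12 to 0.17, edgeR adjusted p = 0.061 to 0.12). Fzd5 was higher in MLL2dTAG at both stages, at 172, 172 and 175 CPM in ESC (0.79, SE 0.04, edgeR adjusted p = 2.0e-18) and 14.4, 15.2 and 15.1 in NPC (0.59, SE 0.06, edgeR adjusted p = 1.8e-10). Fzd5 was also higher in dCD ESC (111, 112 and 109.7 CPM; 0.15), and was not called in dCD NPC (9.08, 8.61 and 9.86 CPM; -0.11). Fzd2 was slightly lower in MLL2dTAG at both stages (-0.43 in ESC and -0.25 in NPC). Fzd10 was higher in MLL2dTAG ESC (29.0, 31.8 and 29.2 CPM; 1.53) but not called in MLL2dTAG NPC (13.5, 14.2 and 15.2 CPM; 0.05, SE 0.07, edgeR adjusted p = 0.53).

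Fzd1 and Fzd8 were called higher in each of the 4 comparisons with WT, as were 6.71% of all genes, a share close to 2 of 40 members. Fzd1 in NPC was almost the same in both lines, with 51.4, 56.6 and 52.7 CPM in MLL2dTAG (1.44, SE 0.07, edgeR adjusted p = 3.6e-20) and a direct difference from dCD of 0.02, SE 0.06, edgeR adjusted p = 0.83. In MLL2dTAG ESC the Fzd1 libraries (3.81, 2.61 and 3.39 CPM) overlapped WT, and the call (0.43, SE 0.14, edgeR adjusted p = 0.012) was lost without WT library 3, at 0.32 (edgeR adjusted p = 0.099), without MLL2dTAG library 1, at 0.32 (edgeR adjusted p = 0.076), and without MLL2dTAG library 3, at 0.38 (edgeR adjusted p = 0.05010). Fzd8 measured 1.44, 1.96 and 2.14 CPM in ESC WT, 2.90, 3.40 and 3.13 in dCD and 3.48, 2.58 and 3.19 in MLL2dTAG. In NPC it measured 11.8, 14.2 and 14.2, 19.4, 17.6 and 18.4 and 20.3, 20.4 and 18.8. Its increases were between 0.46 and 0.73 on the log2 scale. Fzd3 fell in MLL2dTAG ESC from 13.7, 15.5 and 12.2 to 4.98, 5.37 and 3.86 CPM (-1.56, SE 0.10, edgeR adjusted p = 1.7e-15) and was not called in either line in NPC (-0.11 and -0.11). In MLL2dTAG NPC it was called lower with upper-quartile factors, library totals only, no filter, the compared groups alone and halved counts (-0.20 to -0.11, edgeR adjusted p = 8.3e-04 to 0.044). The compared groups alone also called it lower in dCD NPC (-0.10, edgeR adjusted p = 0.037). Fzd7 measured 135, 150.4 and 141 CPM in ESC WT, 122, 115 and 119 in dCD and 127, 131 and 128 in MLL2dTAG, and in NPC 153, 155 and 155, 190.4, 175 and 174 and 176, 179.6 and 186. It was thus lower in both lines in ESC (-0.26 and -0.15) and higher in both in NPC (0.22 and 0.23), by less than 1.5-fold each time; the MLL2dTAG ESC call was lost with no filter on low counts, at -0.09 (edgeR adjusted p = 0.12). Fzd9, at or under 5.06 CPM in every library, was lower in dCD ESC (-0.72) and higher in dCD NPC (1.16), and not called in MLL2dTAG (-0.39 and 0.05).

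The co-receptors Lrp5 and Lrp6 moved by less. Lrp5 averaged 122 ± 4.77 CPM in ESC WT, 103 ± 2.32 in dCD and 87.4 ± 0.412 in MLL2dTAG (mean ± SD, n = 3), lower in both lines (-0.25 and -0.48). In NPC it averaged 85.8 ± 0.208, 77.3 ± 1.24 and 100.5 ± 1.49, lower in dCD (-0.15) and higher in MLL2dTAG (0.23). Lrp6 rose with differentiation from 173 ± 11.1 to 264 ± 5.04 CPM (0.61), whereas Lrp5 fell (-0.51), all on the log2 scale and called. Lrp6 was called lower in MLL2dTAG ESC (-0.25) and dCD NPC (-0.19), and not called in dCD ESC (-0.09) or MLL2dTAG NPC (-0.01).

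Of the secreted modulators, Sfrp1 was the most abundant member of the whole set in NPC WT per kilobase (158 CPM per kb). It rose from 80.6, 75.4 and 83.8 CPM in ESC WT to 688, 693 and 689.9 in NPC WT (3.11, SE 0.04, edgeR adjusted p = 1.9e-38). In dCD NPC it was less than 0.5 times the WT level, at 294, 303 and 297 CPM (-1.21, SE 0.03, edgeR adjusted p = 5.1e-26), and in MLL2dTAG NPC slightly under WT, at 647, 625 and 649 (-0.11, SE 0.03, edgeR adjusted p = 0.0044). Rspo3 held 1.49, 1.33 and 1.36 CPM in ESC WT, 24.3, 21.2 and 22.2 in NPC WT (4.03, SE 0.12, edgeR adjusted p = 2.0e-26), 10.3, 11.5 and 11.3 in dCD NPC (-1.03, SE 0.08, edgeR adjusted p = 2.7e-13) and 24.1, 25.5 and 24.5 in MLL2dTAG NPC, which was not called (0.13, SE 0.07, edgeR adjusted p = 0.13). Both genes were thus lower in dCD NPC than in every library of the other NPC groups. The direct test of MLL2dTAG against dCD gave 1.10, SE 0.03, edgeR adjusted p = 3.3e-25 for Sfrp1 and 1.16, SE 0.08, edgeR adjusted p = 6.5e-15 for Rspo3. In ESC, Sfrp1 was called lower in dCD (61.9, 60.6 and 61.1 CPM; -0.38) and not in MLL2dTAG (83.0, 82.1 and 78.0 CPM; 0.02). Rspo3 was called slightly higher in both lines in ESC (0.47 and 0.42). In dCD this call was lost without WT library 2 or 3 or dCD library 3 (0.29 to 0.45, edgeR adjusted p = 0.089 to 0.29), and in MLL2dTAG without WT library 2 or 3 or MLL2dTAG library 2 or 3 (0.36 to 0.44, edgeR adjusted p = 0.066 to 0.13).

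Notum, the enzyme that inactivates WNT, moved in opposite directions at the 2 stages. In ESC it measured 5.22, 5.54 and 4.59 CPM in WT, 7.90, 7.04 and 6.79 in dCD (0.50, SE 0.11, edgeR adjusted p = 1.6e-04) and 16.6, 15.0 and 15.4 in MLL2dTAG (1.61, SE 0.09, edgeR adjusted p = 6.1e-17). In NPC it measured 29.3, 31.2 and 29.1 in WT, 9.66, 9.99 and 9.53 in dCD (-1.62, SE 0.08, edgeR adjusted p = 2.0e-19) and 7.06, 7.44 and 6.89 in MLL2dTAG (-2.07, SE 0.08, edgeR adjusted p = 1.7e-22). Both lines lay wholly above WT in ESC and wholly below it in NPC, and MLL2dTAG libraries fell with differentiation where WT libraries rose. The difference between the stages was -2.12, SE 0.13, edgeR adjusted p = 1.2e-15 for dCD and -3.68, SE 0.12, edgeR adjusted p = 1.8e-23 for MLL2dTAG. Notumos, on the other strand and overlapping Notum, averaged at most 2.78 CPM in a group, and whether reads were split between them by strand is not stated. Sfrp2 was lower in both lines at both stages. ESC WT held 21.0, 18.6 and 21.6 CPM, dCD 12, 11.6 and 12.4 (-0.76, SE 0.10, edgeR adjusted p = 6.4e-08) and MLL2dTAG 6.12, 4.56 and 5.04 (-1.97, SE 0.11, edgeR adjusted p = 1.6e-17). NPC WT held 12.1, 12.6 and 11.9 CPM, dCD 11.1, 8.72 and 8.71 (-0.36, SE 0.10, edgeR adjusted p = 0.0025) and MLL2dTAG 4.54, 3.71 and 4.44 (-1.54, SE 0.11, edgeR adjusted p = 1.5e-14). The MLL2dTAG libraries were the lowest at both stages. Dkk1 was higher in MLL2dTAG NPC, at 6.58, 7.46 and 5.53 CPM against 3.92, 3.17 and 3.24 in WT (0.93, SE 0.19, edgeR adjusted p = 5.9e-05), and not called in the other 3 comparisons with WT.

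**Figure D4:**
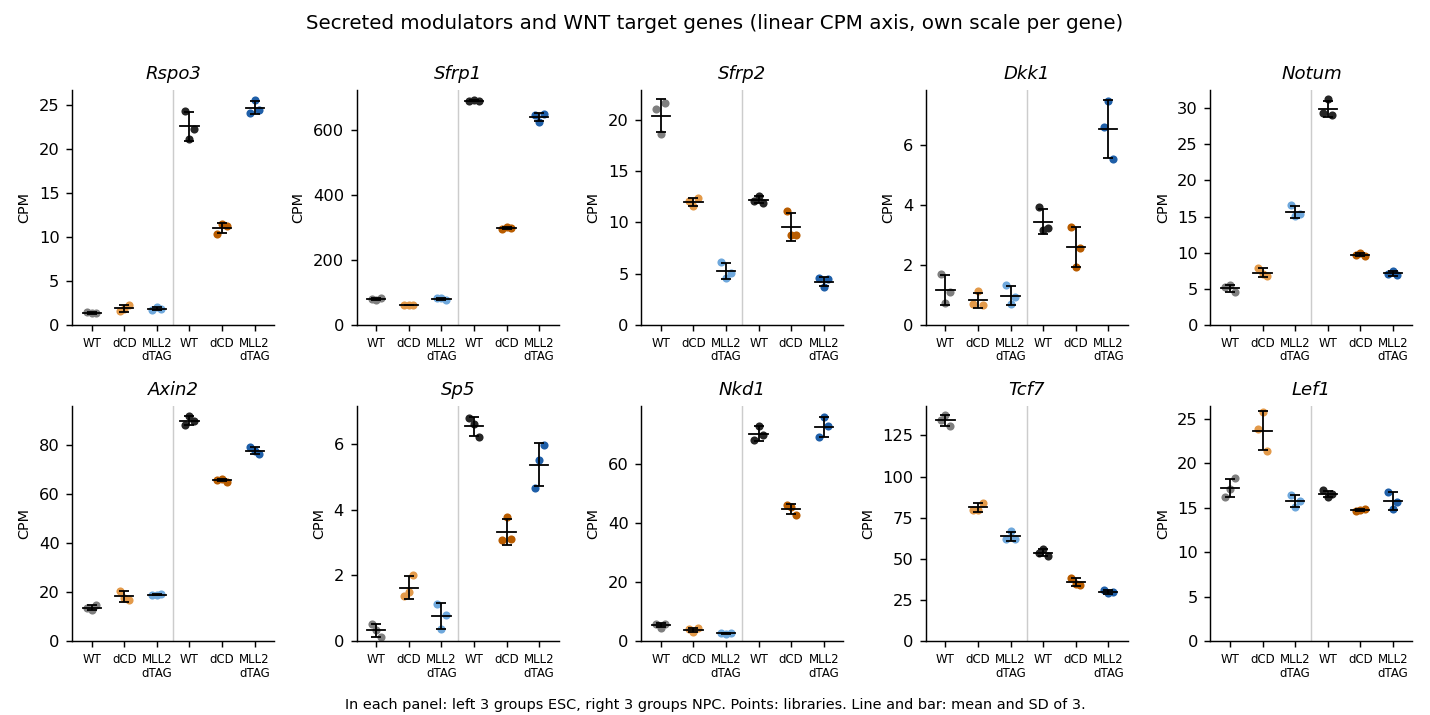
CPM of Rspo3, 4 secreted antagonists and 5 feedback, target or nuclear genes in all 18 libraries, each panel with its own linear axis; points are libraries, lines and bars the mean and SD of 3. Notum and Axin2 are above WT in both edited lines in ESC and below it in NPC (Notum 29.9 CPM in NPC WT against 9.73 and 7.13), and Sfrp1 is 690 CPM in NPC WT against 298 in dCD.

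The feedback genes Axin2, Sp5 and Nkd1, which are read as reporters of beta-catenin activity, all rose with differentiation. Axin2 measured 13.4, 12.8 and 14.8 CPM in ESC WT and 87.9, 91.8 and 89.5 in NPC WT (2.71, SE 0.06, edgeR adjusted p = 1.6e-30). Sp5 measured 0.532, 0.332 and 0.136 CPM and 6.77, 6.60 and 6.20 CPM (4.39, SE 0.28, edgeR adjusted p = 1.7e-16), and Nkd1 5.64, 4.61 and 5.91 and 68.1, 72.9 and 69.7 (3.71, SE 0.08, edgeR adjusted p = 1.4e-30). Of the TCF/LEF factor genes, Tcf7 fell from 135, 137 and 131 to 53.6, 56.1 and 51.8 CPM (-1.32, SE 0.05, edgeR adjusted p = 3.2e-24), and Lef1 was not called (16.2, 17.1 and 18.3 against 16.9, 16.2 and 16.5; -0.06, SE 0.08, edgeR adjusted p = 0.46). With offsets for GC content and length Lef1 was called lower in NPC (-0.37, edgeR adjusted p = 1.8e-05). Of the family's other genes, which are no members, Tcf7l1 was lower (-0.31) and Tcf7l2 higher in NPC (1.75; 7.95 against 27.2 CPM on average).

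In ESC, Axin2 was higher in both lines, with 20.5, 17.4 and 16.6 CPM in dCD (0.40, SE 0.07, edgeR adjusted p = 1.1e-05) and 18.8, 18.8 and 19.2 in MLL2dTAG (0.47, SE 0.07, edgeR adjusted p = 3.2e-07). In NPC it was lower in both, with 65.8, 65.8 and 64.9 (-0.45, SE 0.05, edgeR adjusted p = 3.8e-10) and 78.8, 77.6 and 76.3 (-0.21, SE 0.05, edgeR adjusted p = 2.0e-04). Each of these groups was clear of WT. Notum, above, was on the same side of WT in each of these comparisons, but was lowest in MLL2dTAG NPC, where Axin2 was lowest in dCD NPC. Sp5, whose window above holds the motif at 2 places, was higher in dCD ESC (1.37, 1.49 and 2.01 CPM; 2.39, SE 0.35, edgeR adjusted p = 6.5e-07) and lower in dCD NPC (3.07, 3.78 and 3.11 CPM; -0.97, SE 0.18, edgeR adjusted p = 1.4e-05). In MLL2dTAG ESC it measured 1.14, 0.373 and 0.783 CPM, a range that overlapped WT. That call (1.27, SE 0.40, edgeR adjusted p = 0.0064) was lost without WT library 3, at 0.86 (edgeR adjusted p = 0.080), and without MLL2dTAG library 1, at 0.94 (edgeR adjusted p = 0.062). Sp5 in MLL2dTAG NPC was not called (4.66, 5.50 and 5.95 CPM; -0.28, SE 0.17, edgeR adjusted p = 0.15).

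Nkd1 did not follow Axin2 in ESC. It was lower in both lines there, 4.01, 2.98 and 4.36 CPM in dCD (-0.49, SE 0.13, edgeR adjusted p = 0.0015) and 2.71, 2.36 and 2.87 in MLL2dTAG (-1.01, SE 0.13, edgeR adjusted p = 2.3e-08). In NPC it was lower in dCD (46, 45.5 and 42.8 CPM; -0.65, SE 0.06, edgeR adjusted p = 7.8e-12) and not called in MLL2dTAG (69.0, 75.8 and 72.7 CPM; 0.05, SE 0.06, edgeR adjusted p = 0.49). Tcf7 was lower in both lines at both stages, from -0.59 in dCD NPC to -1.08 in MLL2dTAG ESC, and the 3 groups did not overlap at either stage. Its libraries held 79.7, 79.7 and 84.2 CPM in dCD ESC, 62.3, 66.7 and 62.1 in MLL2dTAG ESC, 38.6, 34.5 and 34.1 in dCD NPC and 31.2, 29.1 and 29.7 in MLL2dTAG NPC. Lef1 was higher in dCD ESC (23.9, 25.8 and 21.3 CPM; 0.45, SE 0.08, edgeR adjusted p = 5.7e-06) and not called in the other 3 comparisons with WT. In dCD NPC it was called lower with upper-quartile factors, the compared groups alone, halved counts, and GC and length offsets (-0.21 to -0.16, edgeR adjusted p = 0.013 to 0.049). Upper-quartile factors also called it lower in MLL2dTAG ESC (-0.19, edgeR adjusted p = 0.036) and NPC (-0.17, edgeR adjusted p = 0.048). 

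The dependence on stage was tested directly as the difference between the NPC and the ESC effect of each line. In dCD it was called for 22 members (55%), 6 upward and 16 downward, where 42.9% of all genes were called, 20% upward and 22.9% downward. In MLL2dTAG it was called for 26 (65%), 12 upward and 14 downward, where 49% of all genes were called, 26.4% upward and 22.6% downward. Differences of at least 2-fold were called in dCD for 3 members upward and 11 downward (11.1% of all genes), and in MLL2dTAG for 5 upward and 10 downward (17.3% of all genes). In dCD 8 members were higher in ESC and lower in NPC (Wnt4, Wnt5b, Wnt9b, Fzd2, Rspo3, Notum, Axin2 and Sp5), as were 5.14% of all genes, and 2 members, Fzd7 and Fzd9, the reverse, as were 4.51%. In ESC the increases of Wnt4 (0.47, SE 0.17, edgeR adjusted p = 0.038) and Wnt5b (0.89, SE 0.29, edgeR adjusted p = 0.012) were small. The Wnt4 call was lost without WT library 1 or 2 or dCD library 1 or 3 (0.38 to 0.47, edgeR adjusted p = 0.071 to 0.17), and the Wnt5b call without WT library 2 or dCD library 3 (0.74 and 0.77, edgeR adjusted p = 0.058 and 0.065). The dCD ESC calls of Wnt9b and Rspo3 and the dCD NPC call of Wnt9b were also lost in some settings. Those of Fzd2, Notum, Axin2 and Sp5 were kept in all. In MLL2dTAG 5 members were higher in ESC and lower in NPC (Wnt5a, Wnt6, Wnt10a, Notum and Axin2), as were 4.72% of all genes, and Wnt11, Fzd7 and Lrp5 the reverse, as were 5.87%. Of these, the MLL2dTAG ESC calls of Wnt10a and Fzd7 were lost in some settings.

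The direct comparison of the lines called 28 members (70%) in ESC, 10 higher and 18 lower in MLL2dTAG than in dCD, where 47.2% of all genes were called, 23.4% higher and 23.7% lower. At least 2-fold differences there were 4 upward and 8 downward (11.7% of all genes). In NPC it called 31 (77.5%), 14 higher and 17 lower, where 55.9% were called, 31.6% higher and 24.3% lower, with 6 upward and 13 downward by at least 2-fold (18.1% of all genes). Of the ligands in NPC, 11 were lower in MLL2dTAG than in dCD and 4 higher. The largest of these in a gene above 5 CPM were Wnt10b (-3.09, SE 0.31, edgeR adjusted p = 1.1e-10) and Wnt3, given above. The higher ones were Wnt11 (1.03), Wnt2b (0.65), Wnt4 (0.26) and Wnt8a (1.22); the Wnt8a call was lost without dCD library 3, at 0.84 (edgeR adjusted p = 0.058). Axin2 (0.24), Sp5 (0.69) and Nkd1 (0.70) were all higher in MLL2dTAG than in dCD NPC.

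The ligand genes include 4 neighbouring pairs with no other protein-coding gene between them (GENCODE vM21, GRCm38). Wnt1 (chromosome 15, 98789857 to 98793837, plus strand) and Wnt10b (98770712 to 98778150, minus strand) are divergent and 11.7 kb apart. Both rose in dCD NPC (1.05 and 2.92), and in ESC Wnt1 was at 0 and Wnt10b at or under 0.332 CPM in every library. Wnt3 (chromosome 11, 103774150 to 103817957, plus) and Wnt9b (103727364 to 103749821, minus) are 24.3 kb apart. In dCD NPC they went opposite ways: Wnt3 rose from 2.69 to 8.05 CPM on average and Wnt9b was called lower, from 0.601 to 0.232 (62 against 24 counts in all). That Wnt9b call (-1.34, SE 0.54, edgeR adjusted p = 0.034) was lost without any one of WT libraries 1 and 3 and the 3 dCD libraries (-1.49 to -1.15, edgeR adjusted p = 0.062 to 0.14). In MLL2dTAG NPC both were called lower, with 4 counts of Wnt9b in all. Wnt9b passed the filter through NPC WT alone, so its lower calls in NPC are not independent of the filter.

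Wnt6 and Wnt10a, 6.19 kb apart on chromosome 1 (74771892 to 74785322 and 74791516 to 74804179, both plus), were both higher in MLL2dTAG ESC and both lower in MLL2dTAG NPC. Wnt10a had 5 counts in ESC WT, 30 in MLL2dTAG ESC, 107 in NPC WT and 35 in MLL2dTAG NPC. Its ESC call (2.21, SE 0.73, edgeR adjusted p = 0.0099) was lost without WT library 3, at 1.57 (edgeR adjusted p = 0.076), and without WT library 2 the fitted change was 3.66 (edgeR adjusted p = 0.0034). Wnt3a (chromosome 11, 59248033 to 59290752, minus) and Wnt9a (59306928 to 59333552, plus) are 16.2 kb apart and did not move alike. Wnt9a was lower in both lines at both stages, while Wnt3a was higher in MLL2dTAG ESC (0, 0.199 and 0.408 CPM in WT, 1.17, 0.993 and 1.07 in MLL2dTAG). It was also called higher in dCD NPC (1.20, 0.799 and 0.838 against 1.66, 1.88 and 1.88 CPM; 0.94, SE 0.32, edgeR adjusted p = 0.012), a call lost without WT library 2, at 0.83 (edgeR adjusted p = 0.056).

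**Figure D5:**
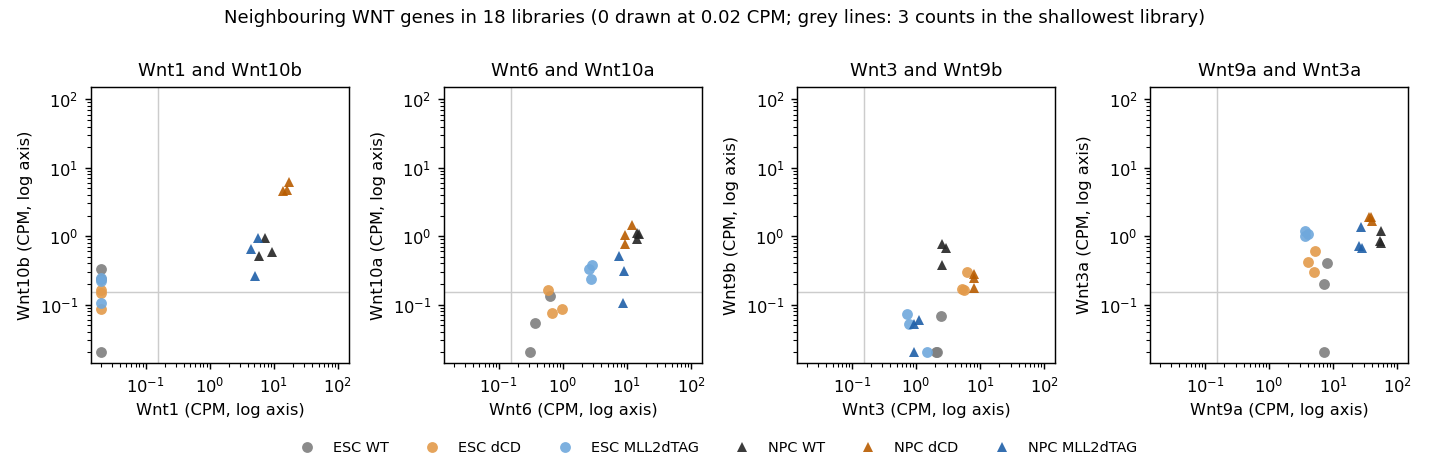
Levels of the 4 neighbouring ligand pairs in all 18 libraries, one gene per log axis in CPM; 0 is drawn at 0.02 CPM and grey lines mark 3 counts in the shallowest library. The 3 NPC dCD libraries stand apart in the Wnt1 and Wnt10b panel (above 13 and 4 CPM), and the Wnt9b and Wnt10a axes stay under 2 CPM.

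The remaining ligands were low in every group. Wnt2, Wnt3a, Wnt7a, Wnt9b, Wnt10a and Wnt16 stayed under 4 CPM in every library, and Wnt8b, with at most 14 counts in a group, was not tested. Wnt2 was higher in dCD NPC (0.317, 0.772 and 0.559 CPM in WT, 2.82, 3.09 and 2.99 in dCD; 2.40, SE 0.30, edgeR adjusted p = 1.1e-08). Its smaller increase in MLL2dTAG NPC (1.00, SE 0.32, edgeR adjusted p = 0.0066) was lost without WT library 1, at 0.74 (edgeR adjusted p = 0.057). Wnt7a was lower in both lines in NPC (-1.32 and -1.46). Wnt8a, the third ligand per kilobase in ESC WT, was not called in ESC of either line and higher in MLL2dTAG NPC (0.253, 0.453 and 0.251 CPM in WT, 0.830, 0.574 and 0.809 in MLL2dTAG; 1.17, SE 0.36, edgeR adjusted p = 0.0057). Wnt16 fell in dCD ESC (0.745, 0.962 and 1.12 CPM in WT, 0.299, 0.249 and 0.0746 in dCD; -2.21, SE 0.51, edgeR adjusted p = 4.7e-04). Wnt9b had 16 counts in dCD ESC against 2 in WT, a ratio of 8.44 (95% exact interval 1.99 to 75.7, counting error only), and the fitted change moved from 2.89 to 5.81 (edgeR adjusted p = 0.0072) without WT library 3. That call was lost without WT library 1 or 2 or dCD library 3 (log2 fold change 2.29 to 2.56, edgeR adjusted p of at most 0.087). For Wnt2, Wnt3a, Wnt7a, Wnt9b and Wnt10a the ESC WT level rested on 2 to 21 counts over 3 libraries, so that leaving out 1 of those libraries moved the fitted fold between stages by more than 1.5 times; the Wnt2 call between stages was lost without ESC WT library 1 or 2 or NPC WT library 2 (0.80 to 0.96, edgeR adjusted p = 0.076 to 0.13).

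Another 71 genes of the pathway, listed for their known roles, were read beside the members; 69 were tested and Dkk4 and Cdx4 were not. In ESC 43 were called in dCD, 30 higher and 13 lower, where 48.3% of all genes were called, and 49 in MLL2dTAG, 31 higher and 18 lower, where 56.9% were. In NPC 47 were called in dCD, 28 higher and 19 lower, against 53.5% of all genes, and 49 in MLL2dTAG, 27 higher and 22 lower, against 61.7%. Wls, which carries WNT proteins to the cell surface, rose with differentiation from 30.1, 28.9 and 25.9 to 263, 253 and 252 CPM, and was higher in dCD ESC (56.0, 60.8 and 56.9 CPM; 1.04, SE 0.05, edgeR adjusted p = 2.2e-18) and dCD NPC (450.5, 441 and 426 CPM; 0.78, SE 0.04, edgeR adjusted p = 6.1e-19). Wls was also called higher in MLL2dTAG, at 37.8, 37.6 and 40.7 CPM in ESC and 315, 313 and 320 in NPC. Among the 21 transducers of the signal inside the cell, Ctnnb1 and Gsk3b included, 12 were called in dCD ESC, 14 in MLL2dTAG ESC, 15 in dCD NPC and 11 in MLL2dTAG NPC. None of these calls reached 2-fold, where 9.51%, 16.8%, 11.9% and 19.6% of all genes had such a call. Further known targets were mostly higher in ESC of both lines: 9 of 10 tested in dCD and 7 of 10 in MLL2dTAG, where 25.7% and 28.7% of all genes were called higher. Among those with at least 5 CPM in a group compared, Myc had the largest increase, with 9.05, 8.23 and 8.87 CPM in ESC WT, 34.4, 36.9 and 36.9 in dCD (2.06, SE 0.07, edgeR adjusted p = 3.9e-22) and 45.9, 46.9 and 47.1 in MLL2dTAG (2.43, SE 0.07, edgeR adjusted p = 1.5e-25). The mesoderm gene T differed between the lines, at 3.89, 4.64 and 3.70 CPM in ESC WT, 15.7, 16.7 and 14.2 in dCD (1.92, SE 0.19, edgeR adjusted p = 2.8e-10) and 1.80, 1.55 and 1.54 in MLL2dTAG (-1.34, SE 0.23, edgeR adjusted p = 7.9e-06).

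In NPC the largest changes of pathway genes with at least 5 CPM were in secreted and membrane modulators. The antagonist gene Dkk2 measured 5.79, 5.67 and 5.59 CPM in WT, 45.5, 44.6 and 40.8 in dCD (2.94, SE 0.09, edgeR adjusted p = 2.3e-24) and 5.01, 6.23 and 5.82 in MLL2dTAG. The glypican gene Gpc4 measured 22.5, 19.5 and 20.9 in WT and 152, 146 and 142 in dCD (2.81, SE 0.05, edgeR adjusted p = 1.7e-30), and Lgr6, an R-spondin receptor, rose in dCD as well (2.37, SE 0.18, edgeR adjusted p = 6.1e-14). Both were also called higher than WT in MLL2dTAG NPC, where Gpc4 averaged 46.2 CPM and Lgr6 2.10 (1.04 in WT and 5.36 in dCD). In MLL2dTAG NPC the agonist Rspo1 fell from 12.9, 13.6 and 13.0 to 3.56, 3.18 and 3.39 CPM (-1.97, SE 0.13, edgeR adjusted p = 2.7e-15; in dCD -2.22, SE 0.14, edgeR adjusted p = 5.3e-16), the antagonist Sfrp5 rose from 7.31, 6.76 and 7.35 to 25.9, 26.3 and 27.4 (1.89, SE 0.09, edgeR adjusted p = 1.2e-19), and Rnf43, which removes Frizzled from the membrane, fell (-1.16, SE 0.09, edgeR adjusted p = 1.6e-13). Rnf43 had also fallen in MLL2dTAG ESC, from 7.67, 7.70 and 8.40 to 1.76, 1.30 and 1.07 CPM (-2.56, SE 0.15, edgeR adjusted p = 1.2e-16). With differentiation of WT cells 46 of the 69 rose and 18 fell, where 39.1% of all genes were higher and 40.4% lower. Among genes with at least 5 CPM at either stage the R-spondin receptor Lgr5 rose most (7.32, SE 0.29, edgeR adjusted p = 1.2e-22), then Trabd2b, a protease that cuts WNT (6.78, SE 0.14, edgeR adjusted p = 2.0e-31), and Sfrp4 fell most (-6.41, SE 0.24, edgeR adjusted p = 1.7e-23).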

How the data were processed

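mRNA was sequenced with the TruSeq Stranded mRNA kit, per the labels' protocols. Per the submitters' processing notes the authors used HTSeq (version not given) to make the deposited read counts per gene symbol, which are whole numbers and not normalized. The aligner, the genome build and any strand setting are not given in the sources used here. Of 36 samples in 14 groups, the 18 of WT, dCD and MLL2dTAG at both stages were used, 3 per group; 18 samples, and 18 per-sample columns whose names did not match one sample or one group, were not analysed here. No row lacked a gene name. Of counts from 1 to 10, 63.4% were even, as when both mates of a pair are counted, so counting intervals (95%, exact) and the floor of 3 counts may understate the counting error.

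Genes passing edgeR's filterByExpr (20511 of 51734; 37417 had a count) were fitted with edgeR 4.0.16 (R 4.3.3, limma 3.58.1): TMM factors 0.967 to 1.05, 1 mean per group, quasi-likelihood F tests with 12 residual degrees of freedom and Benjamini-Hochberg adjustment over all genes tested, called at adjusted p under 0.05. The common dispersion of 0.00161 equals a biological coefficient of variation of 4.01%. All 9 comparisons came from this fit. CPM used library totals scaled by TMM, and CPM per kb the merged exon length of GENCODE vM21. The script was tested on simulated data. Pairs of replicate libraries had a chi-square per degree of freedom of 2.19 to 10.5, the highest with ESC WT library 2. This measure takes each count as independent. If both mates of a pair were counted, sampling noise alone would raise it, so the lowest pairs cannot be told from sampling noise. Promoter windows were RefSeq's. Tables and figures used Python 3.11.15, pandas 2.3.3 and matplotlib 3.10.9.

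The members and lists were chosen with earlier results of these data known. Values of every library were to be given for up to 20 members called with a log2 fold change of at least 1 and a mean of at least 5 CPM in a group, and of the other pathway genes the 3 called with the largest change per comparison at 5 CPM or more. Library values of Notum, Tcf7, Sfrp2, Dkk1, Lef1, Wls, Fzd3, Fzd7, Fzd10, Wnt2, Wnt3, Wnt3a, Wnt7b, Wnt8a and Wnt16, and levels of marker genes and of the polarity genes Ror1, Ror2, Prickle1, Celsr1 and Celsr2, and of Tcf7l1 and Tcf7l2, were added after they were seen. Alternatives were DESeq2 1.42.0, RLE, upper-quartile and total scaling, no filter, the compared groups alone, halved counts, a replicate block, leaving out each library and, chosen after seeing the data, offsets for GC content and exon length.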

Additional observations from a re-analysis of the deposited data

Results flagged for a closer look

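The differences between stages below were called by the test of the NPC effect minus the ESC effect of a line (edgeR, log2 scale, adjusted over all genes tested). They were at least 2-fold, in members with a mean of at least 5 CPM in at least 1 of the 6 groups, so the ESC level can be low. In dCD the change against WT was lower in NPC than in ESC for the WNT ligands Wnt2b (-1.46), Wnt4 (-1.54), Wnt5b (-1.84) and Wnt6 (-1.26), and higher for Wnt10b (3.57). Of these, Wnt4 (0.47) and Wnt5b (0.89) were called above WT in dCD ESC, calls lost in some settings. Downward differences in dCD were also called for the receptors Fzd2 (-1.15) and Fzd4 (-1.0), for Rspo3 (-1.50), for Notum (-2.12) and for Sp5 (-3.37). The ESC part rested on few counts for Wnt10b, 17 in WT and 10 in dCD, and for Sp5 in WT, 24. In MLL2dTAG the change against WT was lower in NPC than in ESC for the ligands Wnt5a (-1.90), Wnt5b (-3.09) and Wnt6 (-3.36), and higher for Wnt11 (1.57). The level of these ligands in MLL2dTAG need not fall with stage: Wnt5a averaged 14.7 CPM in ESC and 25.3 in NPC. Among the MLL2dTAG receptors the difference was upward for Fzd1 (1.02) and Fzd3 (1.45) and downward for Fzd10 (-1.48). Notum (-3.68) and Sp5 (-1.55) were downward, and Dkk1 (1.13) and Nkd1 (1.06) upward. The Dkk1 difference was lost without ESC WT library 1, at 0.84 (edgeR adjusted p = 0.061). Another 27 differences were called among the members, 12 in dCD and 15 in MLL2dTAG, at smaller size or lower level. Apart from the chi-square of replicate pairs and leaving out each library, groups of 3 libraries were not searched for outlying samples.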

How the results depend on the processing

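Every count of called members stayed within 1.5 times its value under all alternatives run. Against WT the members called ranged, over leaving out 1 library each, from 23 to 29 in dCD ESC (27 with all libraries), 23 to 27 in MLL2dTAG ESC (27), 32 to 34 in dCD NPC (33) and 29 to 30 in MLL2dTAG NPC (29). Over the other settings the ranges were 25 to 30, 24 to 28, 32 to 36 and 29 to 33. Between stages in WT 36 to 38 members were called. Some members not called with the main settings were called under others, Fzd3, Lef1, Lrp6, Sp5 and Wnt16 in MLL2dTAG NPC among them. Calls kept in every setting numbered 23 of 27, 21 of 27, 31 of 33 and 28 of 29 in the 4 comparisons with WT, 36 of 38 between stages in WT, 21 of 22 and 17 of 26 for the stage differences of dCD and MLL2dTAG, and 23 of 28 and 27 of 31 for MLL2dTAG against dCD in ESC and NPC. Fzd7 between stages in WT turned from 0.12 to -0.022 with offsets for GC content and exon length (adjusted p = 0.57), which were known for 40 of 40 members and 19655 of 20511 genes; the cause was not tested. Low counts limit Wnt2, Wnt3a, Wnt7a, Wnt9b, Wnt10a and Wnt10b in ESC and Sp5 in ESC WT. The fitted change of Wnt3a in MLL2dTAG ESC, 2.23, became 3.11 (edgeR adjusted p = 1.9e-05) without ESC WT library 3. In MLL2dTAG ESC against dCD, Wnt5a (0.32) was lost without MLL2dTAG library 3, at 0.14 (edgeR adjusted p = 0.22).

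Libraries with the same replicate number did not deviate together: over 45 such pairs the correlation of deviations from the group means was -0.214 to 0.0987, and 2 of 18 libraries correlated best with their own number. With the replicate number as a block the members called were 28, 27, 32 and 29 in the comparisons with WT (27, 27, 33 and 29 without it) and 38 between stages in WT; the stage differences (22 and 26) and the direct comparisons of the lines (28 and 31) kept their counts. The call the block removed was Wnt9b in dCD NPC, at -1.28 (edgeR adjusted p = 0.055).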

Other observations

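The 12 genes listed as non-canonical WNT receptors and polarity components also moved with stage and line. Between ESC and NPC of WT 10 were called higher and 2 lower, where 39.1% of all genes were higher and 40.4% lower. Ror1, a receptor of WNT5A, measured 1.81, 2.92 and 2.24 CPM in ESC WT and 78.0, 75.2 and 75.0 in NPC WT (4.99, SE 0.09, edgeR adjusted p = 3.1e-33), and Prickle1, a polarity protein gene, 7.35, 9.06 and 8.33 and 43.0, 42.9 and 40.5 (2.34, SE 0.08, edgeR adjusted p = 3.8e-25). In ESC both were higher in dCD, Ror1 at 5.89, 4.72 and 6.56 CPM (1.26, SE 0.14, edgeR adjusted p = 1.0e-09) and Prickle1 at 15.8, 16.4 and 17.8 (1.00, SE 0.09, edgeR adjusted p = 9.6e-12), while in MLL2dTAG Prickle1 was lower (4.25, 5.53 and 4.15 CPM; -0.85, SE 0.10, edgeR adjusted p = 1.1e-08) and Ror1 was not called (-0.05).

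Ror2, the other ROR receptor gene, is set here beside Wnt5a, whose protein it binds. Against WT its log2 fold change was 0.51 in dCD ESC, 0.93 in MLL2dTAG ESC, 0.63 in dCD NPC and -0.75 in MLL2dTAG NPC, where Wnt5a had 1.18, 1.50, 0.74 and -0.41. All these changes were called by edgeR, and comparisons of one stage share their WT libraries. In NPC, Ror2 measured 38.8, 40.8 and 40.3 CPM in WT, 65.3, 58.6 and 61.7 in dCD and 22.6, 24.8 and 23.8 in MLL2dTAG, so that the 3 groups did not overlap. The polarity cadherin genes Celsr1 and Celsr2 parted in dCD NPC: Celsr1 averaged 106 CPM in WT and 54.4 in dCD (-0.97, SE 0.06, edgeR adjusted p = 3.9e-16), and Celsr2 65.7 and 106 (0.69, SE 0.06, edgeR adjusted p = 7.7e-13). Both were lower in MLL2dTAG NPC (-0.54 and -0.46).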
